A study of Drosophila melanogaster with 4 samples.

Results

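The regions described here are the 417 Hr78-GFP peaks that the authors' list places outside the assembled chromosome arms, of 1524 peaks in all. They were chosen by the name of the sequence alone: 379 lay on the unplaced sequences U and Uextra (27 and 352), and 38 lay on the heterochromatin scaffolds 2LHet, 2RHet, 3LHet, 3RHet, XHet and YHet, called Het below. Their score, width and position were not part of the choice. The comparison set is the 1095 peaks on the arms X, 2L, 2R, 3L, 3R and 4. The 12 mitochondrial peaks were left out, so shares refer to 1512 peaks.

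The series holds 2 ChIP libraries, made with the rabbit anti-GFP serum ab290, and 2 libraries of input DNA. All came from Drosophila melanogaster embryos aged 8 to 16 h, labelled strain Hr78-GFP, genotype PBac{y[+]-attP-3B}VK00037, with the Hr78 genomic coding region as the transgene. Per the labels, ChIP and input material alike was crosslinked with 1.8% formaldehyde for 15 min. Input libraries carry the same transgene as ChIP libraries, so no group lacks the tagged protein. The tagged copy sits at a single landing site, and the collection protocol in the labels names y; bw cn sp flies, not the tagged strain.

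Hr78 is an orphan nuclear receptor, a zinc-finger transcription factor that is required for ecdysteroid signalling at metamorphosis and for growth of the larval tracheae. In Drosophila, heterochromatin is the compact, gene-poor sequence around centromeres and on the Y chromosome, made largely of satellite repeats and transposable elements. Contigs that could not be assigned to a chromosome are strung together as U and, for small and often repeated pieces, Uextra. Many of these pieces have near-identical copies elsewhere in the genome, so a short read can match several places. How the authors treated such reads is not given here.

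Each peak has a start, an end and the authors' score, whose scale the list does not name. Below, a peak with a higher score is called stronger or higher, which refers to the score only. The list is common to all 4 libraries. No value therefore has a replicate error, the depth is unknown, and ChIP and input levels at a peak were not analysed here. Peaks are not replicates, so differences between kinds of sequence are given as values and none was tested. Intervals of medians and shares are exact 95% intervals that treat each peak as independent and cover counting error only. Positions are on FlyBase release 5. No gene or repeat family is named for a peak, since no release 5 annotation was used here.

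Unplaced peaks had higher scores and were narrower than arm peaks, while Het peaks had higher scores and were wider. The median score was 26.4 on unplaced sequence (interval 24.6 to 28.6, n = 379) and 42.9 on Het (22.1 to 63.1, n = 38), against 18.6 on the arms (17.1 to 19.9, n = 1095). Both intervals lie above that of the arms, and the wide interval of Het contains that of unplaced sequence. The median width was 328 bp on unplaced sequence (305 to 343 bp) and 479 bp on Het (383 to 561 bp), against 401 bp on the arms (387 to 414 bp). Taken as 1 set of 417, the peaks had a median score of 26.9 and a median width of 337 bp, values set mostly by the unplaced peaks. The Het medians stand on few peaks, and the Het interval for width contains that of the arms.

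U and Uextra were close to each other. The median score was 25.5 on U (interval 13.5 to 38.2) and 26.7 on Uextra (24.7 to 28.6), and the median widths were 328 and 327.5 bp. Their density was not close: U held 3.20 peaks per Mb between its first and last peak (2.11 to 4.65) and Uextra 12.5 per Mb (11.2 to 13.8), against 9.20 per Mb on the arms (8.67 to 9.76). Before 28 Mb, however, Uextra held 9.73 per Mb, within the interval of the arms. Single arms ranged from 7.85 per Mb on X to 11.1 on 2R and 36.6 on chromosome 4.

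**Figure D1:**
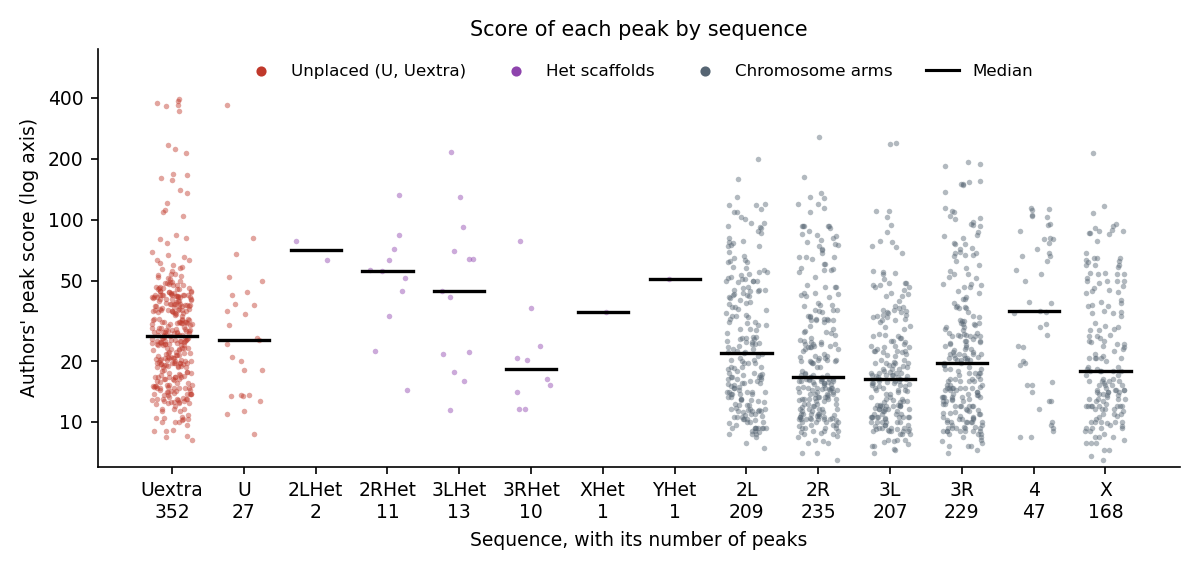
Authors' score of each peak (log axis) by sequence, with the number of peaks under each name, 1 point per peak and a black line at the median. The 7 points above 300 all lie on Uextra or U, and the medians of 2RHet (55.7) and 3LHet (44.6) lie above those of all 6 arms.

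The surplus of unplaced peaks sat in the middle of the score range. Scores of 20 to under 60 were held by 221 of 379 unplaced peaks (58.3%) and 16 of 38 Het peaks (42.1%), against 361 of 1095 arm peaks (33.0%) and 39.6% of all 1512 peaks. When the ranking by score was cut into 10 equal parts, the third, between 34.9 and 45.3, held 71 unplaced peaks of 151 (47.0%), against 75 on the arms. Scores at or above the list's median were held by 240 unplaced peaks (63.3%) and 27 Het peaks (71.1%), against 487 arm peaks (44.5%) and 49.9% of all peaks. Within that upper part the order of the medians turned round, with 36.2 on unplaced sequence and 42.4 on the arms. Weak peaks were few: scores under 10 were held by 10 unplaced peaks (2.64%) and 0 of 38 Het peaks, against 155 arm peaks (14.2%) and 10.9% of all. The lowest unplaced score was 8.15, at Uextra 15840882 to 15841082, a peak of 201 bp.

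How frequent strong peaks were on unplaced sequence depended on the limit. Scores at or above 60 were held by 32 unplaced peaks (8.44%) and 13 Het peaks (34.2%), against 151 arm peaks (13.8%) and 13.0% of all peaks. At or above 100 the shares were 20 unplaced peaks (5.28%) and 3 Het peaks (7.89%), against 49 arm peaks (4.47%) and 4.76% of all, a difference of a few peaks. The 100 highest peaks, which are 6.61% of the 1512, comprised 20 unplaced and 4 Het peaks, against 76 on the arms. Among the 50 highest there were 17 unplaced and 3 Het peaks, against 30 arm peaks, and among the 200 highest 32 and 13, against 155. The unplaced share thus depends on how far down the ranking is read, and at 100 it is below the 25.1% that unplaced peaks make up of all 1512. Its interval was 21.2 to 48.8% among the 50 highest and 12.7 to 29.2% among the 100 highest, and both contain 25.1%. Among the 200 highest it was 11.2 to 21.8%, below 25.1%.

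**Figure D2:**
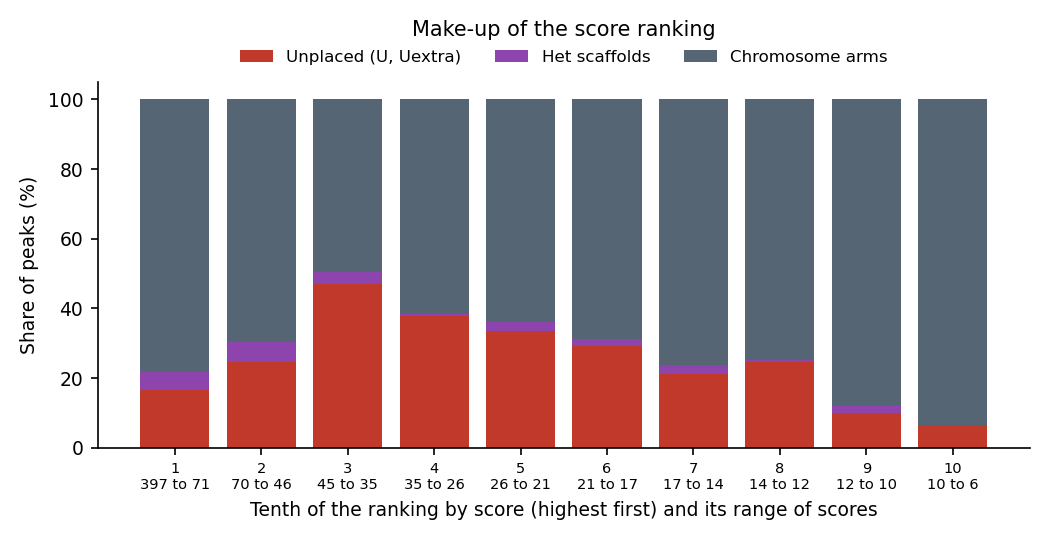
Share of unplaced, Het and arm peaks (percent, stacked bars) in 10 equal parts of the ranking of 1512 peaks by score, highest first, with the range of scores under each bar. The unplaced share is 16.6% in the first part, 47.0% in the third and 6.58% in the last.

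The 20 strongest unplaced peaks were divided into runs of score at limits of 300, 200 and 100. Gaps also lay inside runs, as between 365.2 and 346.3 in the first. The first run is the 7 peaks over 300, which are 0.463% of the 1512 peaks and the only ones among all 1524, with scores of 346.3 to 397.1, a median of 369.4 and widths of 568 to 815 bp. Its members were Uextra 27103591 to 27104192 (score 397.1), Uextra 6118267 to 6118866 (387.4), Uextra 23790152 to 23790943 (378.9), Uextra 2831291 to 2831886 (369.4), U 9538403 to 9538970 (368.3), Uextra 13798631 to 13799240 (365.2) and Uextra 21748087 to 21748901 (346.3). Of these, 5 were 568 to 610 bp wide, with scores of 365.2 to 397.1, and the other two were 792 and 815 bp wide. The next unplaced score was 234.5, below the highest arm peak, at 2R 15993786 to 15994373, with 255.3.

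The second run held 3 peaks with scores of 214.1 to 234.5 and widths of 452 to 511 bp, at Uextra 14829705 to 14830205, Uextra 19622129 to 19622639 and Uextra 7039350 to 7039801. The third held 10 peaks, all on Uextra, with scores of 104.3 to 167.3 and widths of 349 to 637 bp. Below these the next score was 83.6. The 13 unplaced peaks at 100 to under 300 had a median width of 450 bp, against 642 bp for the 49 arm peaks in that range. The second-highest peak of U, at 9158344 to 9158864, had a score of 81.6, so U held a single peak of the 20.

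At equal width, unplaced peaks had higher scores than arm peaks in 5 of the 6 classes of width. Among peaks of 201 to 250 bp the median score was 24.0 on unplaced sequence (n = 103), against 10.3 on the arms (n = 173). Among peaks of 301 to 400 bp it was 28.7 (n = 98) against 16.7 (n = 253), and among those of 501 to 700 bp it was 48.7 (n = 32) against 33.4 (n = 225). Over 700 bp the median score was 53.9 on unplaced sequence (n = 7), against 54.4 on the arms (n = 133).

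As a ratio of medians, the difference was widest for the narrowest peaks. Widths of at most 250 bp were found in 103 unplaced peaks (27.2%) and 4 Het peaks (10.5%), against 173 arm peaks (15.8%) and 18.5% of all peaks. A score of 20 or more at such a width occurred in 57 of these 103 unplaced peaks and 2 of the 4 Het peaks, against 0 of 173 on the arms. Over all sequences it occurred in 59 of the 280 peaks of this width (21.1%), which are 3.90% of all 1512 peaks. The highest score at this width was 80.0 on unplaced sequence and 51.0 on Het, against 18.7 on the arms. On U it was 67.5, at 9170094 to 9170313, a peak of 220 bp. The median of unplaced peaks of at most 250 bp, 24.0 (interval 19.2 to 26.1), was also above that of unplaced peaks of 251 to 300 bp. The latter was 19.5 (16.7 to 20.9, n = 62), and these intervals overlap. On the arms the order was the opposite, with 10.3 and 12.7. Of the 103 narrow unplaced peaks, 40 lay on Uextra beyond 28 Mb, and the order was not examined without them.

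**Figure D3:**
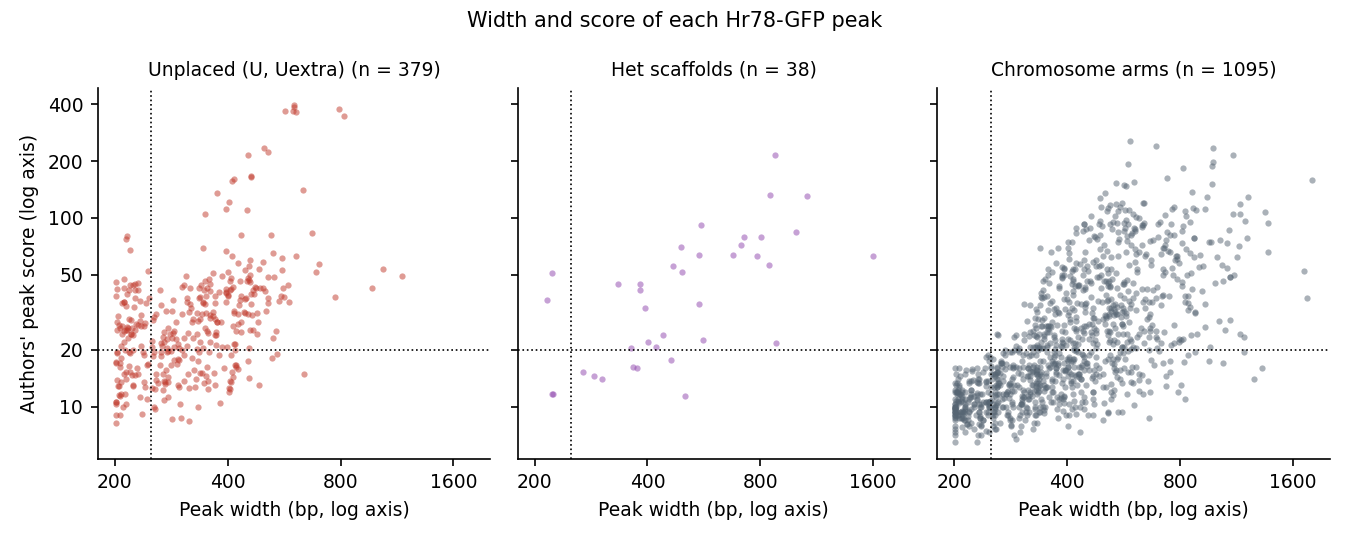
Width (bp) and authors' score of each peak, both on log axes, for unplaced, Het and arm peaks, with dotted lines at 250 bp and at a score of 20. The upper left field holds 57 unplaced and 2 Het peaks and no arm peak.

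**Figure D4:**
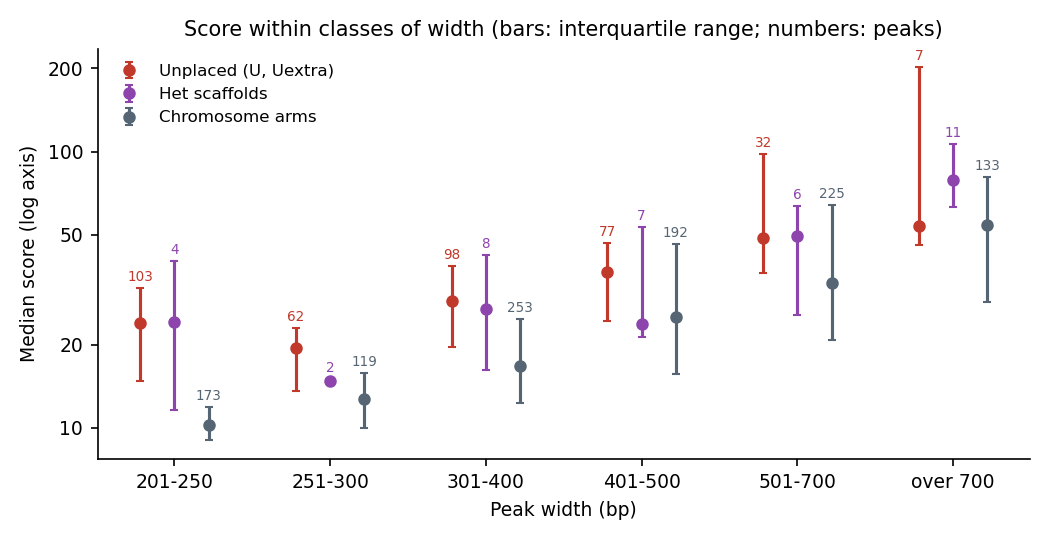
Median score (log axis) within 6 classes of width for unplaced, Het and arm peaks. Bars span the interquartile range and the number of peaks stands above each bar. The unplaced median lies above that of the arms up to 700 bp, by 24.0 against 10.3 in the narrowest class.

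Wide peaks were rare on unplaced sequence. Over 700 bp were 7 unplaced peaks (1.85%) and 11 Het peaks (28.9%), against 133 arm peaks (12.1%) and 9.99% of all. The widest unplaced peak, at U 5288480 to 5289644, spanned 1165 bp with a moderate score of 49.5, and the widest on an arm, at 2L 6722694 to 6724490, spanned 1797 bp. Width and score went together less closely on unplaced sequence: Spearman's rho across peaks was 0.45 on unplaced sequence (n = 379) and 0.70 on Het (n = 38), against 0.71 on the arms (n = 1095). Both values of a peak come from the same call, so these correlations only describe the list.

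The authors' scores carry 2 decimals, and the same value often recurs. A score that is also listed, to 0.01, for another peak on the arms was found for 102 of 379 unplaced peaks (26.9%, interval 22.5 to 31.7%) and 28 of 38 Het peaks (73.7%, 56.9 to 86.6%), against 802 of 1095 arm peaks (73.2%, 70.5 to 75.8%) and 61.6% of all. Among scores of 20 to under 60 the counts were 37 of 221 unplaced (16.7%) and 14 of 16 Het peaks (87.5%), against 269 of 361 arm peaks (74.5%) and 320 of all 598 (53.5%). Among scores under 20 they were 62 of 126 unplaced (49.2%) and 7 of 9 Het peaks (77.8%), against 458 of 583 arm peaks (78.6%) and 527 of all 718 (73.4%), so the gap between unplaced and arm peaks was smaller there. Over all scores, the Het share lies within the interval of the arms, and the interval of unplaced sequence lies below both.

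Peaks of like width and score were looked for next. A pair was counted as like when widths differed by at most 10 bp and scores by at most 2% of their mean. Of all pairs within a kind of sequence, 104 of 71631 were like on unplaced sequence (0.145%) and 1 of 703 on Het (0.142%), against 612 of 598965 on the arms (0.102%). With limits of 5 bp and 1% the shares were 0.0405% on unplaced sequence and 0.0396% on the arms, closer together than at the first limits. With 20 bp and 5% they were 0.716% and 0.517%. Among peaks at or above the list's median score they were 0.230% on unplaced sequence and 0.0862% on the arms. Such shares also depend on how far widths and scores spread within a kind of sequence. Over all its peaks, unplaced sequence had an interquartile range of width of 240.5 to 416 bp, against 289 to 547 bp on the arms. How much of the difference in shares goes with this spread was not tested. A partner was found for 135 unplaced peaks (35.6%) and 2 Het peaks, against 548 arm peaks (50.0%) and 45.3% of all, a share that grows with the number of peaks compared. On the arms, 162 unplaced peaks (42.7%) had a partner, and 328 of 415005 pairs of an unplaced and an arm peak were like (0.0790%).

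Joined through such pairs, the unplaced peaks formed 33 pairs, 14 groups of 3, 4 groups of 4 and 1 group of 11, and 244 had no partner. At the same limits the arm peaks formed 76 groups of 3 or more, the largest of 20, against 19 on unplaced sequence. Such counts also grow with the number of peaks compared. A group is a chain of like pairs, so its members need not all be like each other. No peak of the list was narrower than 201 bp. The group of 11 had widths of 203 to 226 bp, near that lower end. Its scores were 25.1 to 27.0, a height that no arm peak of at most 250 bp reached. It comprised U 6661423 to 6661639 and 10 Uextra peaks, of which 8 lay beyond 28 Mb, for example at 28597403 to 28597628 and 28605000 to 28605215. The 4 groups of 4 tie in size. The one with the highest scores, with widths of 219 to 231 bp and scores of 44.0 to 45.3, comprised U 5302769 to 5302987 and, on Uextra, 3809375 to 3809601, 26370877 to 26371107 and 28810077 to 28810300. Another had widths of 228 to 240 bp and scores of 26.8 to 27.5, on Uextra. These, with the group of 11, belong to the narrow peaks of raised score. The other two groups of 4 do not: one, on Uextra, had widths of 266 to 283 bp and scores of 19.4 to 19.6, and one, on U and Uextra, had widths of 205 to 213 bp and scores of 11.4 to 11.6. The 7 highest peaks held no like pair among their 21 pairs, and 3 with limits of 20 bp and 5%. The only like pair on Het was 3RHet 779336 to 779558 and 3RHet 1808504 to 1808727, both with a score of 11.6 and widths of 223 and 224 bp.

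Positions on U and Uextra are positions in strung-together contigs, so distances there describe the assembly. The last stretch of Uextra was crowded: from 28 Mb to the last peak, at 28997162, it held 87 of 352 peaks (24.7%), or 87.2 per Mb, against 9.73 per Mb before it. The 28 windows of 1 Mb before it held 3 to 20 peaks each, with a median of 8.5. Its peaks were narrow, with a median of 266 bp, against 342 bp on the rest of Uextra, and 40 of 87 were at most 250 bp wide, against 54 of 265. The median scores were 27.5 there and 26.1 on the rest. It held none of the 7 highest peaks.

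The share of peaks with another within 5 kb, between midpoints, was 24.5% on unplaced sequence (93 of 379) and 47.4% on Het (18 of 38), against 31.1% on the arms (340 of 1095) and 29.8% of all peaks. On Uextra this came mostly from the end stretch, where 56 of 87 peaks (64.4%) had such a neighbour, against 30 of 265 (11.3%) on the rest. Without the end stretch the share on unplaced sequence was 12.7%. Peaks separated by gaps of at most 5 kb were then joined into groups, and the 2 largest unplaced groups lay in the end stretch. One held 13 peaks at Uextra 28572371 to 28609982, with scores of 15.3 to 49.5. The other held 5 at Uextra 28617870 to 28631025, with 21.9 to 30.2. Next came 3 groups of 4 peaks each: Uextra 28804686 to 28813751 with scores of 28.1 to 57.2 and Uextra 28853821 to 28859657 with 17.8 to 52.8, both in the end stretch, and U 5288480 to 5296869 with 13.5 to 49.5. On U, 3 more peaks followed at 5302279 to 5303433, with a highest score of 44.0. Such groups were not particular to unplaced sequence, and the largest on the arms held 20 peaks. With single peaks counted as groups, 29 of 886 groups on the arms held 3 or more peaks, against 11 of 317 on unplaced sequence. The numbers of such groups, 29 and 11, grow with the number of peaks in a set. In all, 357 of 1095 arm peaks shared a group with another peak, against 98 of 379 unplaced and 18 of 38 Het peaks.

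**Figure D5:**
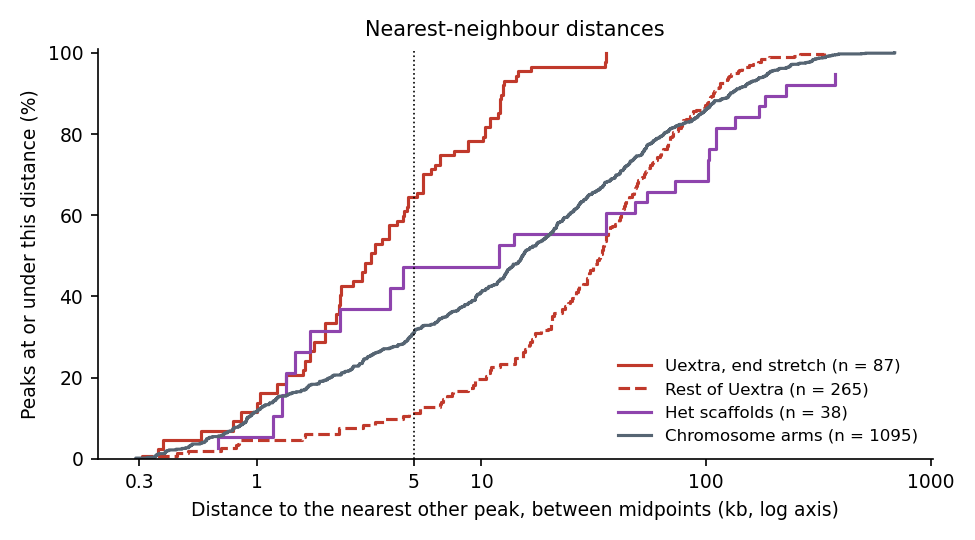
Cumulative share of peaks (percent) by distance to the nearest other peak, between midpoints (kb, log axis), for the end stretch of Uextra from 28 Mb, the rest of Uextra, Het scaffolds and arms, with a dotted line at 5 kb. At 5 kb the curves stand at 64.4, 11.3, 47.4 and 31.1%.

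The medians of the Het peaks differed among scaffolds, each of which holds few peaks. On 2RHet the 11 peaks had a median score of 55.7 and a median width of 561 bp, against 16.7 and 389 bp on 2R. On 3LHet the 13 peaks had 44.6 and 503 bp, against 16.3 and 387 bp on 3L. On 3RHet the 10 peaks had 18.3 and 332.5 bp, against 19.5 and 384 bp on 3R, so its medians were not higher. The intervals of the median score were 22.5 to 84.1 on 2RHet, 17.8 to 92.0 on 3LHet and 11.6 to 36.8 on 3RHet. These overlap one another. Only that of 2RHet lay above the interval of its arm, which was 15.6 to 20.4 on 2R, against 14.8 to 18.3 on 3L. Chromosome 4, the dot chromosome with much heterochromatin-like sequence, had a median score of 35.4 and a median width of 536 bp (n = 47), nearer to 2RHet and 3LHet than the other arms were.

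The strongest Het peak was at 3LHet 1396326 to 1397202, 877 bp wide, with a score of 215.6 and rank 13 of 1512. It was followed by 2RHet 471573 to 472422 with 131.9 and 3LHet 458633 to 459696 with 129.9, the widest of 3LHet at 1064 bp. The widest of all Het peaks, at 2RHet 2900264 to 2901866, spanned 1603 bp with a score of 63.1. On 3RHet 1898839 to 1899560 was both the highest and the widest, with 78.8 and 722 bp. Both peaks of 2LHet, at 32774 to 33556 and 34113 to 34914, lay side by side with scores of 63.1 and 78.8 and widths of 783 and 802 bp. The single peak of XHet, at 75809 to 76358, had a score of 34.9 and a width of 550 bp. That of YHet, at 137060 to 137281, had a score of 51.0 at 222 bp, and with 3RHet 2308396 to 2308611 (score 36.8, 216 bp) it is one of the 2 narrow Het peaks of raised score given above.

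Het peaks within 5 kb of each other came in pairs only: 9 pairs and 20 single peaks. The arms held 738 single peaks, 119 pairs and 29 groups of 3 or more, so larger groups were uncommon there too. Pairs of strong peaks lay at 3LHet 601250 to 606295 (scores 92.0 and 63.7), 2RHet 2823569 to 2828355 (84.1 and 71.6) and on 2LHet. Weak pairs lay at 3LHet 2245241 to 2246910 (17.8 and 11.4) and 3RHet 1808504 to 1810228 (15.2 and 11.6). At 2RHet 1621433 to 1623680 a peak of 55.7 stood beside a weaker one of 22.5.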

How the data were processed

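The authors deposited 1 peak list for 2 ChIP and 2 input libraries. Per the file headers its build is FlyBase release 5, and its source column names MACS. Per the submitters' processing notes, the tools were MACS2, BWA and CASAVA (1.7.0.2, 1.7.0.3) and the build was BDGP5. The score of each peak is the authors' value as deposited; the sources used here do not give its scale, the calling threshold or how libraries were pooled. Groups were taken from the titles.

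Sequence classes, medians, shares, pairs of like peaks and distances were computed with Python 3.11.15, numpy 2.4.6, pandas 2.3.3 and scipy 1.17.1. Medians carry exact order-statistic intervals, shares exact binomial (Clopper-Pearson) intervals and densities, over the span from first to last peak, exact Poisson intervals. The counting of like pairs and neighbours was tested on simulated lists of 379 and 1095 peaks, and it recovered the planted pairs and neighbours in 20 of 20 lists each. All other simulated peaks were spaced widely in width and position, so no unplanted pair could arise. The test therefore checks the counting only, not lists as dense as the real ones.

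Peaks named are the 10 highest unplaced, the highest and widest of each Het scaffold and of the arms, the lowest and widest unplaced, and the 3 largest groups by position and by likeness, with ties in size going to the higher score; groups that tie for the last place are given too. Others were chosen after their values were seen. Members, lists and classes were chosen with earlier results of these data known. The limits of 250 bp, a score of 20 and 28 Mb, the bands of score and the recurring scores were chosen after seeing the data. The reference at hand is of release 6, so its coordinates and sequences were not used.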

Additional observations from a re-analysis of the deposited data

How the results depend on the processing

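Of 67 recomputed values of 19 results, none of which has a test, 44 stayed within the interval of the listed value or, for a count, within 1.5 times of it. Merging peaks under 100 bp apart moved none. Counting 5 kb groups once moved only the median score of the arms, to 20.4. Keeping peaks at or above the median score left 240 unplaced and 487 arm peaks, with median scores of 36.2 on unplaced sequence, 37.5 with Het added and 42.4 on the arms, and median widths of 359, 373 and 529 bp; the order of the unplaced and arm scores is reversed there. Like pairs then made up 0.230% of unplaced, 0% of Het and 0.0862% of arm pairs. Stricter limits of likeness gave 0.0405% of unplaced and 0.0396% of arm pairs, wider ones 0.716% and 0.517%. Among the 50 highest peaks the unplaced share was 34%. Neighbours within 10 kb were found for 34.6% of unplaced and 41.0% of arm peaks, within 1 kb for 7.65% of unplaced, 5.26% of Het and 11.7% of arm peaks. Without Uextra beyond 28 Mb, an alternative chosen after seeing the data, the share within 5 kb was 12.7% on unplaced sequence. Other or fewer peaks and other limits are the construction of these settings. No paired analysis was possible because 1 list covers all 4 libraries, and leaving out a replicate was not possible for the same reason. The unknown depth limits all values: no site can be called unbound.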
